A study of Mus musculus with 15 samples.

Results

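The activin, inhibin, BMP and TGF-beta ligand genes of the mouse uterus were followed through the response to estradiol (E2) and estriol (E3), which differs from E2 by an additional hydroxyl group. The set held 10 genes, Inhbb, Inhba, Inha, Fst, Bmp2, Bmp4, Bmp7, Tgfb1, Tgfb2, and Tgfb3, chosen by gene symbol from 27677 named genes on the array, and every non-control probe carrying one of these symbols was kept. This gave 13 probes, since Inhbb, Inha, and Bmp7 had a pair each, and the members of a pair are called the bright and the weak probe by their mean signal. All 13 passed the filter on dim probes, which asked for a signal well above background on 2 or more arrays of any group, and none was saturated.

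Uterine RNA was hybridized to 15 one-color Agilent Whole Mouse Genome arrays, 3 per group. All animals were ovariectomized adult females (10 weeks or older) with the wild-type Esr1 genotype, rested for 10 to 14 days after surgery and then injected intraperitoneally with 100 µl of saline or with 250 ng of E2 or E3 in that volume. Uteri were taken 24 hr after saline, 2 or 24 hr after E2, and 2 or 24 hr after E3. Strain C57bl6/J was given for every group except E2 at 2 hr, which was C57bl6/Jx129. The E2 2 hr arrays were also the only ones read on the second of 2 scanners and on another day, and shared no slide with another group, so that treatment, strain, and scan cannot be told apart in any comparison that includes them. The E2 24 hr arrays (on 2 slides) and the E3 24 hr arrays (on 1 slide) shared no slide with another group either, so slide and group cannot be told apart for them. Saline was sampled only at 24 hr, so each 2 hr comparison with saline also differs in the time since injection. The protocols describe extraction of each uterus on its own, whereas the study's methods mention pooled tissue, and p-values therefore measure the spread between these 3 preparations per group. All comparisons with saline share the same 3 control arrays.

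Activins are dimers of the beta A (Inhba) or beta B (Inhbb) subunit, and inhibins pair a beta subunit with the alpha subunit (Inha), which opposes activin at its receptors. Follistatin (Fst) binds activin and keeps it from its receptors. Activins, BMPs, and TGF-beta ligands all act through pairs of type I and type II receptor kinases that phosphorylate SMAD proteins: SMAD2 and SMAD3 for activin and TGF-beta, and SMAD1, SMAD5, and SMAD8 (also called SMAD9) for BMPs. In the uterus, BMP2 is known for its part in the stromal response to an implanting embryo, and activins and TGF-beta ligands for effects on growth and tissue remodeling.

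Values are log2 intensities centered on the 75th percentile of the same array, here called the log2 level, and a difference is between group means of these levels. A probe is said to rise or fall where p was below 0.001 with at least a 2-fold change in limma's moderated test, and adjusted p-values are Benjamini-Hochberg values over all probes tested. Levels of different probes are not comparable.

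The array sequences that carry these measurements are shown, 5′ to 3′ in the sense direction, for most of the probes on which the results turn. Of the paired probes for Inhbb, the weak one lay at chr1:119278359-119278418 and the bright one at chr1:119276025-119276084 on the minus strand (build mm7, as the array headers name it), 2274 bases apart. The Inhba probe lay at chr13:15394279-15394338 on the plus strand. The coordinates of the Fst probe spanned 673 bases, chr13:111626922-111627594 (minus), for a probe of 60 bases, so that it lay across an intron. Bmp2 was read at chr2:133302098-133302157 (plus), Bmp4 at chr14:41704207-41704266 (minus), and Tgfb2 at chr1:186149057-186149116 (minus). For the bright Inhbb and Tgfb2 probes the first 30 of 60 bases are given, and no base is capitalized because no part of a probe is singled out.
Inhbb weak probe: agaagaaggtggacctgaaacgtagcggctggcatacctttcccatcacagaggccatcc
Inhbb bright probe: cataataacttaaaaccaaagaattttccc
Inhba: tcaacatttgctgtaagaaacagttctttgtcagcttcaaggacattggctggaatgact
Fst: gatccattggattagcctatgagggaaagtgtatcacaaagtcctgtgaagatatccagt
Bmp2: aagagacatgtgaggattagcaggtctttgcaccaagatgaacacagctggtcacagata
Bmp4: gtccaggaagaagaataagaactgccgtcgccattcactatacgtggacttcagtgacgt
Tgfb2: tcatccattatttccctgatttcattgaaa

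All 10 genes matched RefSeq by accession, and 6 of them (Inhbb, Inha, Inhba, Bmp4, Tgfb1, and Tgfb2) had a promoter window in the RefSeq table of build GRCm38.p6, which runs from 250 bases before to 50 after a gene's start. Bmp2, Bmp7, Fst, and Tgfb3 were not analysed for promoter sequence. The 250 bases before the start are shown for Inhbb and Tgfb2, the members with the highest rise over saline after E2 at 2 hr. They cover chr1:119422249-119422498 and chr1:186705990-186706239, both on the minus strand. Capitals mark the motif matches found on either strand, which were GGGCGG (the Sp1 motif) for Inhbb and TATAAA (the TATA box) for Tgfb2.
Inhbb promoter: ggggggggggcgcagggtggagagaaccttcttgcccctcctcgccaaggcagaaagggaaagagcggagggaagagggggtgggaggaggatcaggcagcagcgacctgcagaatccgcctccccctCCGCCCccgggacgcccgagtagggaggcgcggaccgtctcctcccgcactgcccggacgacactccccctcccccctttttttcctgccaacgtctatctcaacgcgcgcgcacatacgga
Tgfb2 promoter: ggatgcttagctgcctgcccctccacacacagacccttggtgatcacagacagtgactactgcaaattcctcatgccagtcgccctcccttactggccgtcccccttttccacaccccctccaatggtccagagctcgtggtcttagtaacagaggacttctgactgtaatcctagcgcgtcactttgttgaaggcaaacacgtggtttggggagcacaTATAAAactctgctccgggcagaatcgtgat

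The part of each window after the gene's start was not searched for motifs. All motif counts and shares here are for the part before the start, in the 6 genes and in all windows alike. The letters of the full estrogen response element, GGTCANNNTGACC, were in none of the 6 windows. This element was in 0.0639% of the 32851 windows in the table. Its arm GGTCA, which every full element also holds, was found once each in the windows of Inha, Inhba, and Tgfb1, against 35.2% of all windows with at least 1 match. The AP-1 motif TGACTCA (4.46% of all windows) and the CRE motif TGACGTCA (1.55%) were in none of the 6. GGGCGG was in 3 of the 6 windows (Inhbb, Bmp4, and Tgfb1) and in 32.7% of all windows, and TATAAA in 2 of the 6 (Inhba and Tgfb2) and in 12.4% of all. For Inha the window held the whole sequence of the weak Inha probe, so it overlaps sequence that the array measured as transcript. The motif matches describe the letters of the windows before the start and no more.

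Inhbb had the highest rise of the set, present after either compound at 2 hr and largely gone at 24 hr. For the bright probe, the log2 levels were 1.93, 1.62, and 1.79 on the saline arrays, 6.34, 6.44, and 6.36 after E2 at 2 hr, and 5.94, 6.05, and 6.0 after E3 at 2 hr. At 24 hr the same probe read 2.78, 2.43, and 2.94 after E2 and 1.56, 1.57, and 1.87 after E3. Both 2 hr groups lay far above every other array, the E2 24 hr arrays lay above all saline arrays, and the E3 24 hr arrays overlapped the saline range.

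In fold terms the bright probe rose 24.2-fold after E2 at 2 hr (log2 difference 4.60 ± 0.13 SE, adjusted p = 8.71e-10) and 18.6-fold after E3 at 2 hr (4.22 ± 0.13, adjusted p = 1.83e-09). At 24 hr the E2 arrays stood 1.92-fold above saline (adjusted p = 6.04e-05), just short of the 2-fold minimum, which they passed without the first saline array (1.01) or the second E2 24 hr array (1.08). The E3 arrays at 24 hr differed from saline by -0.11 on the log2 scale (95% confidence interval -0.40 to 0.17).

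The weak Inhbb probe gave the same order of times. Its saline levels were -5.17, -4.91, and -5.00, those after E2 at 2 hr 0.05, 0.01, and -0.24, and those after E3 at 2 hr 0.20, 0.35, and 0.39. After 24 hr it read -3.98, -4.09, and -3.41 with E2 and -4.98, -4.99, and -5.02 with E3. The 2 hr groups again stood apart from all other arrays, and only the E3 24 hr arrays fell within the saline range.

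This probe rose 31.2-fold after E2 and 40.5-fold after E3 at 2 hr (adjusted p = 1.52e-09 and 1.09e-09), and 2.30-fold after E2 at 24 hr (1.20 ± 0.15 SE, adjusted p = 3.23e-05). Without the third E2 24 hr array the 24 hr difference was 0.99, and it no longer reached 2-fold. With normexp background correction it was 0.87 and no longer called. At 24 hr after E3 the difference from saline was 0.03 (95% confidence interval -0.31 to 0.36).

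Inhba, which encodes the other activin beta subunit, moved the same way at 2 hr but by much less. Its log2 levels were 0.09 on all 3 saline arrays, 0.85, 1.10, and 1.24 after E2 at 2 hr, and 0.98, 1.27, and 0.99 after E3 at 2 hr. After 24 hr the levels were 0.09, 0.43, and 0.26 with E2 and 0.15, 0.32, and -0.35 with E3. Every 2 hr array lay above every saline and 24 hr array.

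The 2 hr differences of Inhba were 0.97 ± 0.16 (SE) for E2 and 0.99 ± 0.16 for E3, or 1.95-fold and 1.98-fold, with adjusted p = 0.000249 and 0.000324, so both missed the 2-fold minimum by a narrow margin. The E2 difference was called without the first E2 2 hr array (1.07) or with no scaling between arrays (1.04), and the E3 difference without the first or the third E3 2 hr array (1.03 each). Between 2 and 24 hr after E3 the probe fell by 1.04 (adjusted p = 0.000178), a call that was lost without the second E3 2 hr array (-0.95) or the third E3 24 hr array (-0.85), and in a fit of only the compared groups (-1.04). The saline intervals at 24 hr ran from -0.19 to 0.52 for E2 and from -0.41 to 0.30 for E3.

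Inha, the subunit that turns an activin subunit into inhibin, went the other way. The bright Inha probe read -1.91, -1.75, and -1.66 with saline, -3.91, -4.95, and -4.14 after E2 at 2 hr, and -3.44, -3.42, and -4.05 after E3 at 2 hr. At 24 hr it read -2.50, -2.50, and -2.58 after E2 and -1.67, -1.90, and -1.99 after E3. All 2 hr arrays were below all others, the E2 24 hr arrays were below saline, and the E3 24 hr arrays overlapped saline.

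This probe fell to 17.0% of the saline level after E2 at 2 hr (-2.56 ± 0.23 SE, adjusted p = 1.64e-06) and to 27.5% after E3 at 2 hr (-1.86 ± 0.23, adjusted p = 3.66e-05). After E2 at 24 hr it stood at 59.5% of saline (adjusted p = 0.0146), which did not reach the threshold. It then rose 3.51-fold from 2 to 24 hr with E2 and 3.44-fold with E3 (adjusted p = 1.83e-05 and 4.26e-05). The weak Inha probe lay near background, with 2 of 3 arrays well above it in each 2 hr group, and its differences from saline were -1.10 after E2 (adjusted p = 0.00346, not called) and -1.26 after E3 (adjusted p = 0.00193, called). That call was lost under normexp (-0.35), under quantile normalization (-0.99), and when any 1 of the 6 arrays compared was left out, whereas the E2 difference became a call without the second E2 2 hr array (-1.34), under quantile normalization (-1.07), and when the 75th percentile was taken only from probes that every array measured well above background (-1.17).

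Follistatin, the activin-binding protein, was read at -4.02, -4.19, and -4.21 with saline, -2.78, -3.22, and -3.52 after E2 at 2 hr, and -4.09, -3.78, and -3.98 after E3 at 2 hr. The 24 hr levels were -3.87, -3.51, and -3.63 for E2 and -3.95, -4.03, and -4.58 for E3. The E2 2 hr arrays lay above the saline and E3 2 hr arrays, and each E2 group lay clear of the E3 group of its time. The difference from saline after E2 at 2 hr was 0.97 ± 0.20 (SE), or 1.95-fold (adjusted p = 0.000981), short of 2-fold, and it became a call without the third E2 2 hr array (1.14) or the first saline array (1.02), with quantile normalization (1.14), and with no scaling between arrays (1.04). After E3 at 2 hr it was 0.19 (95% confidence interval -0.24 to 0.62).

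**Figure D1:**
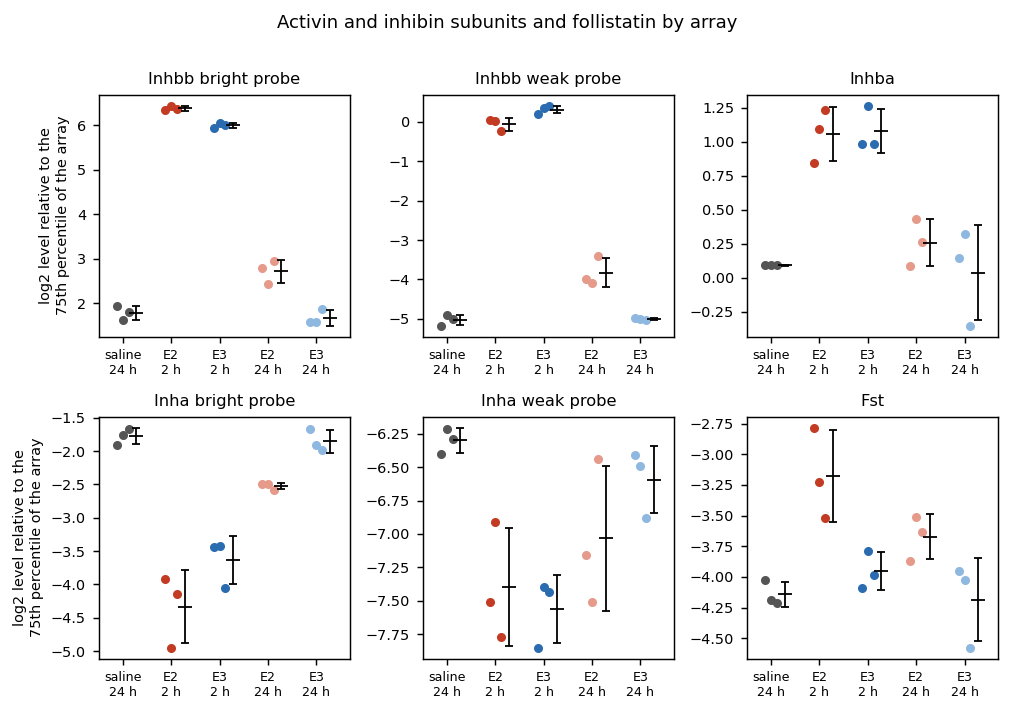
Log2 level (relative to the 75th percentile of the array, linear axis, a scale of its own in each panel) of the Inhbb, Inhba, Inha, and Fst probes on the 3 arrays of each of 5 groups. Dots are arrays, and the dash and bar beside them are the mean and SD. The bright Inhbb dots sit between 5.94 and 6.44 at 2 hr against 1.62 to 1.93 with saline, the bright Inha dots lie at or below -3.42 at 2 hr, and Inhba lies above its saline level of 0.09 on every 2 hr array.

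Bmp2, a ligand of the BMP type I receptors, fell at both times after E2 and at 2 hr after E3. Its levels were -2.23, -2.37, and -2.03 with saline, -3.22, -3.38, and -3.72 after E2 at 2 hr, and -3.98, -4.11, and -4.24 after E3 at 2 hr. At 24 hr it read -3.64, -3.63, and -3.68 after E2 and -3.11, -3.07, and -3.34 after E3. No treated array reached the saline range.

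Bmp2 stood at 42.7% of saline after E2 at 2 hr (-1.23 ± 0.13 SE, adjusted p = 7.17e-06), 26.8% after E3 at 2 hr (-1.90, adjusted p = 4.38e-07), 36.9% after E2 at 24 hr (-1.44, adjusted p = 3.17e-06), and 51.3% after E3 at 24 hr (-0.96, adjusted p = 0.000388). The last of these missed 2-fold and passed it without the second saline array (-1.04) or the second E3 24 hr array (-1.01), and with no scaling between arrays (-1.03). With normexp the E2 2 hr difference was -1.11 and was not called. From 2 to 24 hr the difference was -0.21 with E2 and 0.94 with E3, neither of them called, the latter passing without the third E3 24 hr array (1.02) or the first E3 2 hr array. The time by compound interaction, the E3 minus E2 difference at 24 hr minus that at 2 hr, was 1.15 (adjusted p = 0.000456).

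Bmp4, a BMP ligand closely related to Bmp2, passed no threshold against saline. Its levels were 0.17, 0.05, and 0.22 with saline, 0.10, -0.26, and -0.50 after E2 at 2 hr, and -0.41, -0.72, and -0.53 after E3 at 2 hr. At 24 hr they were -0.96, -0.67, and -0.82 after E2, below every saline array, and 0.14, 0.32, and -0.33 after E3, on both sides of it. The E2 24 hr difference was -0.96 ± 0.18 (SE, adjusted p = 0.000499), or 51.3% of saline, and the E3 2 hr difference -0.70 (adjusted p = 0.00545). The former was called without the second E2 24 hr array (-1.03) or the second saline array (-1.01), and with the percentile taken only from probes that every array measured well above background (-1.01). Its time by compound interaction was 1.20 (adjusted p = 0.00206), and 8 of 12 runs that left out 1 array, the fit of only the compared groups, normexp, and no scaling lost that call.

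Bmp7, a BMP ligand of epithelial tissues, was not called in any comparison by either probe. The bright Bmp7 probe read 2.33 to 2.78 with saline, 2.10 to 2.56 after E2 at 2 hr, 2.04 to 2.51 after E3 at 2 hr, 2.39 to 2.58 after E2 at 24 hr, and 2.06 to 2.46 after E3 at 24 hr. All groups overlapped saline. Across the 4 comparisons with saline its differences lay between -0.30 and -0.07, the lowest 95% confidence bound was -0.66, and the highest was 0.30. The weak probe, 19 bases from the bright one on the array's map, had differences from saline of -0.33 to -0.04.

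Tgfb2 was the member of the set with the widest difference between the compounds at 2 hr. It read 0.11, -0.10, and 0.17 with saline, 2.36, 2.43, and 2.46 after E2 at 2 hr, and 0.92, 1.03, and 0.80 after E3 at 2 hr. At 24 hr the levels were -0.79, -0.76, and -0.64 after E2 and -0.69, -0.53, and -0.56 after E3. The order was E2 at 2 hr, E3 at 2 hr, saline, and then both 24 hr groups, which overlapped each other, with no other overlap.

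After E2 at 2 hr Tgfb2 rose 5.12-fold (2.36 ± 0.09 SE, adjusted p = 3.47e-09). After E3 at 2 hr it was 1.81-fold above saline (0.86 ± 0.09, adjusted p = 9.05e-06), without reaching 2-fold. At 24 hr it stood at 57.9% of saline after E2 (-0.79, adjusted p = 1.42e-05) and 63.6% after E3 (-0.65, adjusted p = 0.000374), again under the 2-fold minimum. From 2 to 24 hr it fell by 3.14 on the log2 scale with E2 and by 1.51 with E3 (adjusted p = 6.97e-10 and 1.03e-07), and the time by compound interaction was 1.63 (adjusted p = 6.17e-06).

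Tgfb1 and Tgfb3, the other TGF-beta isoforms, were not called anywhere. Tgfb1 read -2.37, -1.84, and -2.54 with saline, -2.31, -2.40, and -2.73 after E2 at 2 hr, -1.84, -1.89, and -1.15 after E3 at 2 hr, -2.02, -1.91, and -2.08 after E2 at 24 hr, and -2.12, -2.16, and -1.51 after E3 at 24 hr. Single arrays stood above the rest in 3 groups, the second with saline and the third in each E3 group. The summed level of 5 leukocyte markers (Ptprc, Cd68, C1qa, Itgam, and Emr1, linear and relative to the 75th percentile) was also highest of its group on those arrays, at 21.8, 35.3, and 47.1 against 8.85 to 15.5 on the other arrays of these groups, and its part in the Tgfb1 values was not tested. The Tgfb1 difference from saline after E3 at 2 hr was 0.62 (adjusted p = 0.048). Tgfb3 ranged from 2.13 to 2.93 over the 15 arrays, with differences from saline of -0.33 to 0.30.

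**Figure D2:**
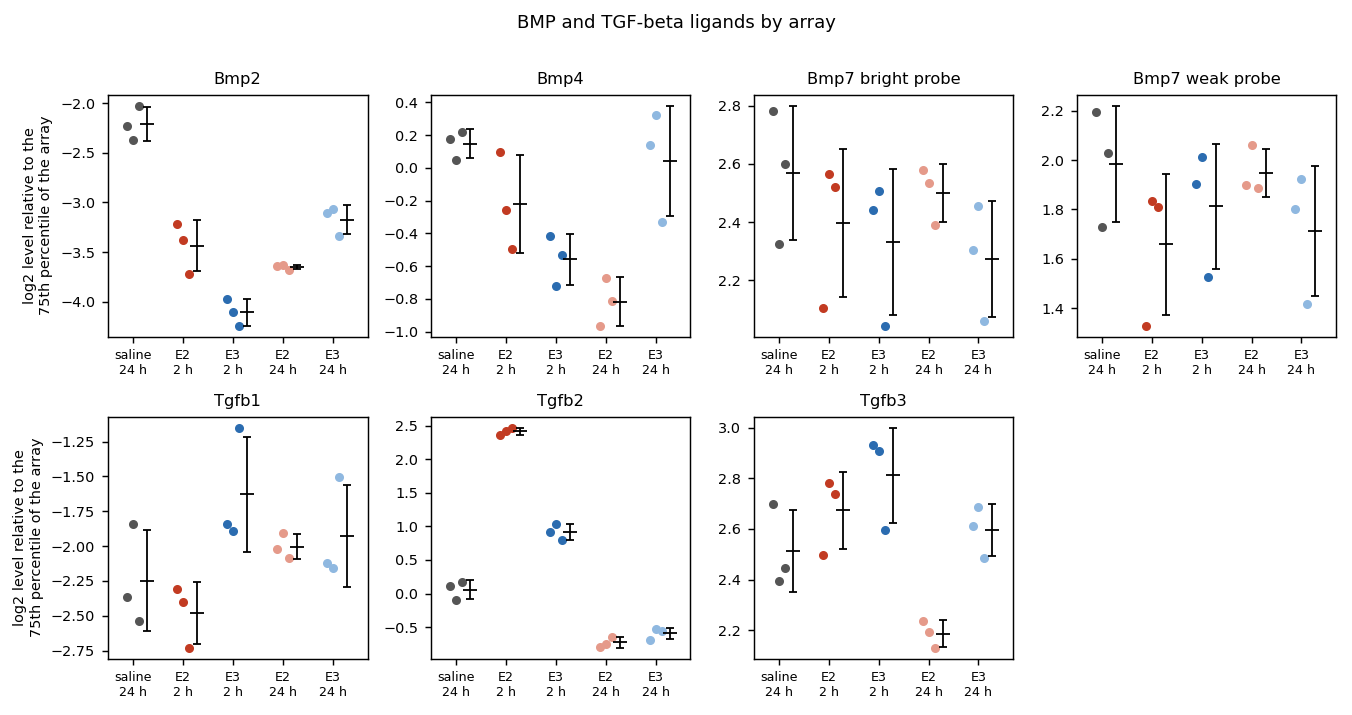
Log2 level (relative to the 75th percentile of the array, a scale of its own in each panel) of the BMP and TGF-beta ligand probes on the 3 arrays of each group. Dots are arrays, and the dash and bar are the mean and SD. Bmp2 lies below saline on every treated array, Tgfb2 lies at 2.36 to 2.46 after E2 and 0.80 to 1.03 after E3 at 2 hr, and the Bmp7 groups overlap.

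Counted over the 13 probes, 5 were called after E2 at 2 hr (3 higher and 2 lower), against a background of 21.1% of all probes tested in that comparison (10.8% higher and 10.3% lower). After E3 at 2 hr 5 were called (2 higher and 3 lower), where 13.7% of all probes were (4.83% higher and 8.82% lower). The 2 hr calls came from 4 genes after E2 and from 3 after E3, as both probes of a pair were counted. At 24 hr, 2 were called after E2 (1 higher and 1 lower), close to the background share of 18.1% (6.95% higher and 11.1% lower). After E3 at 24 hr limma called 0 against a background of 3.83% (1.85% higher and 1.99% lower), with 2 of the 13 at an unadjusted p under 0.05, and no other tool was run. The background is the share of calls, and the share of all probes at that unadjusted p is not given. The median difference over the 13 probes was -0.17, 0.19, -0.07, and -0.10 in the same order, beside -0.06, -0.09, -0.06, and -0.01 over all probes tested. From 2 to 24 hr, 4 were called with E2 (1 higher and 3 lower, background 31.0%, of which 13.5% higher and 17.6% lower) and 5 with E3 (1 higher and 4 lower, background 16.0%, of which 9.30% higher and 6.67% lower). The direction was mixed, as the higher calls at 2 hr were both Inhbb probes and, after E2, Tgfb2, and the lower calls were Inha and Bmp2.

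Leaving out the second E2 24 hr array raised the E2 24 hr count to 4, and leaving out the third lowered it to 1. The E3 24 hr count was 1 without the second saline array or the second E3 24 hr array.

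**Figure D3:**
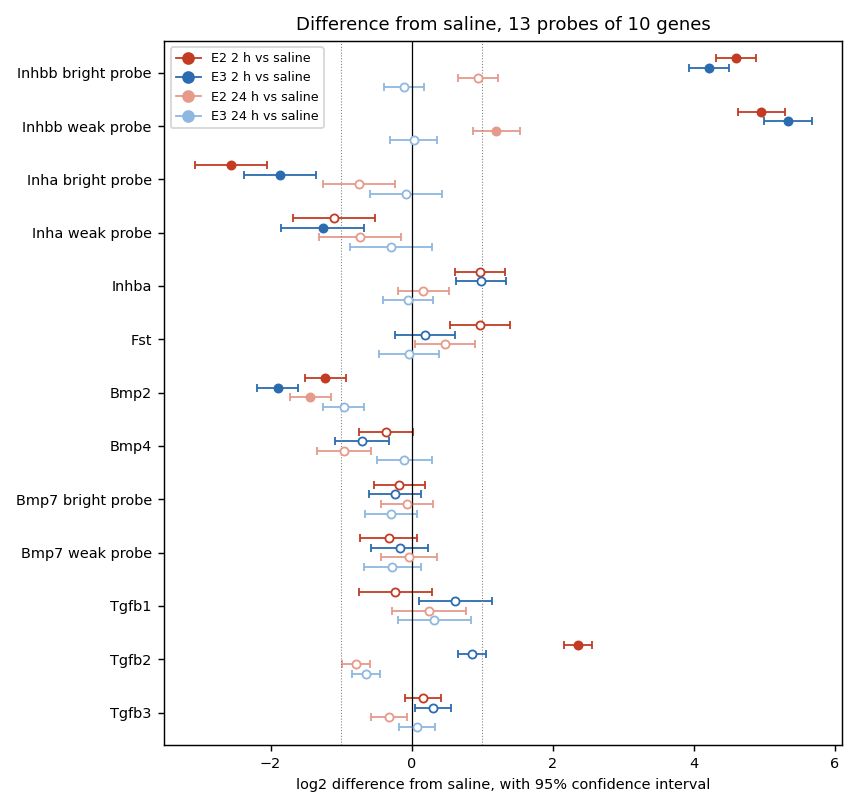
Log2 difference from saline (horizontal axis) of the 13 probes for the 4 treated groups, with 95% confidence intervals from limma. Filled circles passed p below 0.001 with at least 2-fold change, open circles did not, and dotted lines mark 2-fold. The Inhbb circles at 2 hr lie between 4.22 and 5.34, far to the right of the rest, and no circle of E3 at 24 hr is filled.

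E2 and E3 were compared directly at matched dose and time, in 2 pairs, with p-values adjusted over all probes. At 2 hr, 1 of 13 probes was called, lower with E3 (background 7.37%, of which 5.84% lower). That was Tgfb2, which was 1.50 ± 0.09 (SE) lower on the log2 scale with E3, or 35.3% of the E2 level (adjusted p = 9.05e-07). Bmp2 was at 62.8% of the E2 level (-0.67, adjusted p = 0.00175) and Fst at 58.4% (-0.78, adjusted p = 0.00735), both short of 2-fold. Tgfb1 was 1.81-fold higher with E3 (adjusted p = 0.013). The leukocyte marker sums were 5.36 to 9.36 after E2 and 10.5 to 35.3 after E3 at this time, and their part in that difference was not tested.

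Inhbb gave no single answer on the compounds at 2 hr. The bright probe was 0.38 lower with E3 (95% confidence interval of the difference -0.66 to -0.10, adjusted p = 0.0331) and the weak probe 0.38 higher (0.04 to 0.71, adjusted p = 0.066). For Inhba the interval ran from -0.34 to 0.38, and for Tgfb3 from -0.12 to 0.40. Bright Inha was 0.70 higher with E3 (adjusted p = 0.0299), with overlapping arrays.

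At 24 hr, 2 of 13 probes were called, both lower with E3 (background 4.84%, of which 2.09% lower), and both were Inhbb. The bright probe stood at 48.3% of its E2 level (-1.05 ± 0.13 SE, adjusted p = 0.000107) and the weak probe at 44.3% (-1.17 ± 0.15, adjusted p = 0.00015). Both calls rested on single arrays, since none was left without the third E2 24 hr array (-0.94 and -0.97) and the bright one was lost without the first E3 24 hr array (-1.0). Under quantile normalization the bright probe's difference was -0.98 and not called. With normexp the weak probe's difference was -0.07, where the median over all probes moved from 0.06 to 0.42.

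Other probes pointed to higher levels with E3 than E2 at 24 hr without reaching 2-fold. Bmp4 was 1.81-fold higher (0.86, 95% confidence interval 0.48 to 1.24, adjusted p = 0.00262) and was called without the third E3 24 hr array (1.05). Also higher were bright Inha at 1.59-fold (adjusted p = 0.0409), Bmp2 at 1.39-fold (adjusted p = 0.0152), and Tgfb3 at 1.33-fold (adjusted p = 0.0169). For Tgfb2 the interval of the E3 minus E2 difference was -0.06 to 0.33. The interaction, called for 4 of 13 probes (background 15.4%), is the test of whether the E3 minus E2 difference changed between the times. It was called for the weak Inhbb probe (-1.55, adjusted p = 0.000157), Bmp2, Bmp4, and Tgfb2, and was -0.67 for the bright Inhbb probe (adjusted p = 0.0104).

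**Figure D4:**
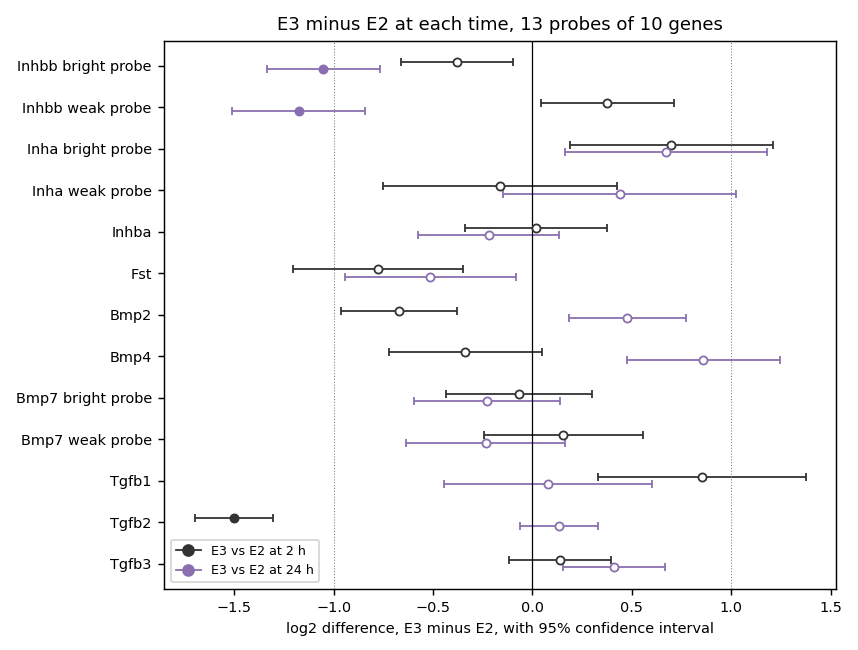
Log2 difference between E3 and E2 (E3 minus E2, horizontal axis) at 2 hr and 24 hr for the 13 probes, with 95% confidence intervals. Filled circles passed p below 0.001 with at least 2-fold change, and dotted lines mark 2-fold. Tgfb2 at 2 hr (-1.50) and the Inhbb probes at 24 hr (-1.05 and -1.17) are the filled circles.

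The genes whose levels across the 15 arrays were most like those of the bright Inhbb probe, by Pearson's r, were P2ry2 (0.996), Gadd45g (0.995), Atf4 (0.995), Slc25a25 (0.994), and Rbm13 (0.993). P2ry2 encodes a receptor for extracellular nucleotides, Gadd45g a stress-response protein, and Atf4 a transcription factor of the integrated stress response. Within the set, r with the bright Inhbb probe was 0.991 for the weak Inhbb probe, 0.925 for Inhba, 0.867 for Tgfb2, and -0.956 for bright Inha. The arrays fall into 5 groups, so these values mostly describe the group pattern.

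The rest of the pathway was followed in 82 further genes in 5 lists, of which 77 were tested by their probe of highest mean signal. After E2 at 2 hr 18 of the 77 were called (10 higher and 8 lower, 23.4% against the background of 21.1%). After E3 at 2 hr it was 15 (8 higher and 7 lower, 19.5% against 13.7%), and after E2 at 24 hr 9 (3 higher and 6 lower, 11.7% against 18.1%). After E3 at 24 hr limma called 0 of 77 (background 3.83%), with 23 at an unadjusted p under 0.05. That background is the share of calls, and the share of all probes at this unadjusted p is not given. Between E3 and E2, 5 of 77 were called at 2 hr (2 higher and 3 lower with E3, 6.49% against 7.37%) and 2 at 24 hr (1 higher and 1 lower, 2.6% against 4.84%).

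Among 14 receptor genes, 3 were called after E2 at 2 hr (1 higher and 2 lower, background 21.1%) and 3 after E3 at 2 hr (1 and 2, background 13.7%). Acvr2b, a type II receptor for activins, fell after E2 at 2 hr (-1.50), E3 at 2 hr (-1.46), and E2 at 24 hr (-1.28). Amhr2, the type II receptor for anti-Müllerian hormone, fell at 2 hr with either compound (-1.56 and -1.22), and Eng, an endothelial co-receptor for TGF-beta, rose with either (1.14 and 1.13). The receptors Acvr1b, Acvr2a, Bmpr1a, Bmpr2, Tgfbr1, Tgfbr2, and Tgfbr3 passed no threshold against saline, with differences between -0.82 (Tgfbr3, E2 at 24 hr) and 0.37 (Bmpr2, E2 at 2 hr).

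Antagonists and carriers (15 tested) gave 0 calls at 2 hr with either compound in limma (background 21.1% for E2 and 13.7% for E3), with 8 (E2) and 8 (E3) at an unadjusted p under 0.05 and no other tool run. These backgrounds are shares of calls, and the shares of all probes at the unadjusted p are not given. Bmper, a secreted BMP-binding protein, rose after E2 at 24 hr (1.48, adjusted p = 0.000129). Nog, which encodes the BMP antagonist noggin, had differences from saline of 1.79 after E2 and 2.11 after E3 at 2 hr (adjusted p = 0.0103 and 0.00551), and 1 E3 24 hr array had no value for it. Fstl3, a follistatin-like activin binder, was 0.66 and 0.82 above saline at 2 hr, under 2-fold.

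Of 16 SMADs and SMAD regulators, 6 were called after E2 at 2 hr (3 higher and 3 lower, background 21.1%) and 4 after E3 at 2 hr (2 and 2, background 13.7%). Smad7, an inhibitory SMAD, read 0.12, 0.12, and 0.17 with saline, 2.39, 2.19, and 2.12 after E2 at 2 hr, and 0.77, 0.35, and 0.88 after E3 at 2 hr. Its arrays after E2 stood clear of those after E3, as they did for Tgfb2. Smad7 rose by 2.09 after E2 (adjusted p = 6.6e-07) and was 0.53 above saline after E3 (adjusted p = 0.022, not called), and the E3 minus E2 difference at 2 hr was -1.57 (adjusted p = 2.96e-05).

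Tob1, an antiproliferative protein that binds SMADs, rose by 3.80 after E2 and by 2.39 after E3 at 2 hr, with a called difference of -1.41 between the compounds (adjusted p = 5.91e-06). Skil, a SMAD co-repressor, rose by 2.02 and 1.56. Zfyve9, which presents SMADs to the receptor, fell after E2 at 2 hr (-1.50) and was at -0.27 after E3, and it was 1.22 higher with E3 than with E2 (adjusted p = 0.000151).

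Among 11 tested target genes, 3 were called after E2 at 2 hr (2 higher and 1 lower, background 21.1%), 3 after E3 at 2 hr (2 and 1, background 13.7%), and 3 after E2 at 24 hr, all lower (background 18.1%). Id1, a target of BMP signaling, rose by 1.73 after E2 at 2 hr and was 0.87 above saline after E3. Hey1, a target of Notch and BMP signaling, rose with either (2.11 and 1.71). Tgfbi and Ctgf, both induced by TGF-beta in many cells, fell after E2 at 24 hr (-2.02 and -1.52), and Tgfbi was 1.54 higher with E3 than with E2 at that time (adjusted p = 7.86e-06).

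Of 21 tested ligands outside the set, 6 were called after E2 at 2 hr (4 higher and 2 lower, background 21.1%) and 5 after E3 at 2 hr (3 and 2, background 13.7%). Gdf15, a distant family member induced by cell stress, read -2.42, -2.12, and -3.02 with saline, 3.44, 3.63, and 3.90 after E2 at 2 hr, and 3.70, 3.37, and 3.22 after E3 at 2 hr. Its rise of 6.17 and 5.95 (adjusted p = 4.07e-09 and 1.02e-08) was above that of Inhbb on this scale. Bmp8a, a BMP ligand, rose by 4.93 and 3.38 at 2 hr, with a called E3 minus E2 difference of -1.55, and its relative Bmp8b rose after E2 at 2 hr (1.17) and 24 hr (1.79). Inhbc, the activin beta C subunit, best known from liver, fell at 2 hr (-1.81 and -1.59) and was at -0.25 (E2) and 0.22 (E3) at 24 hr.

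**Figure D5:**
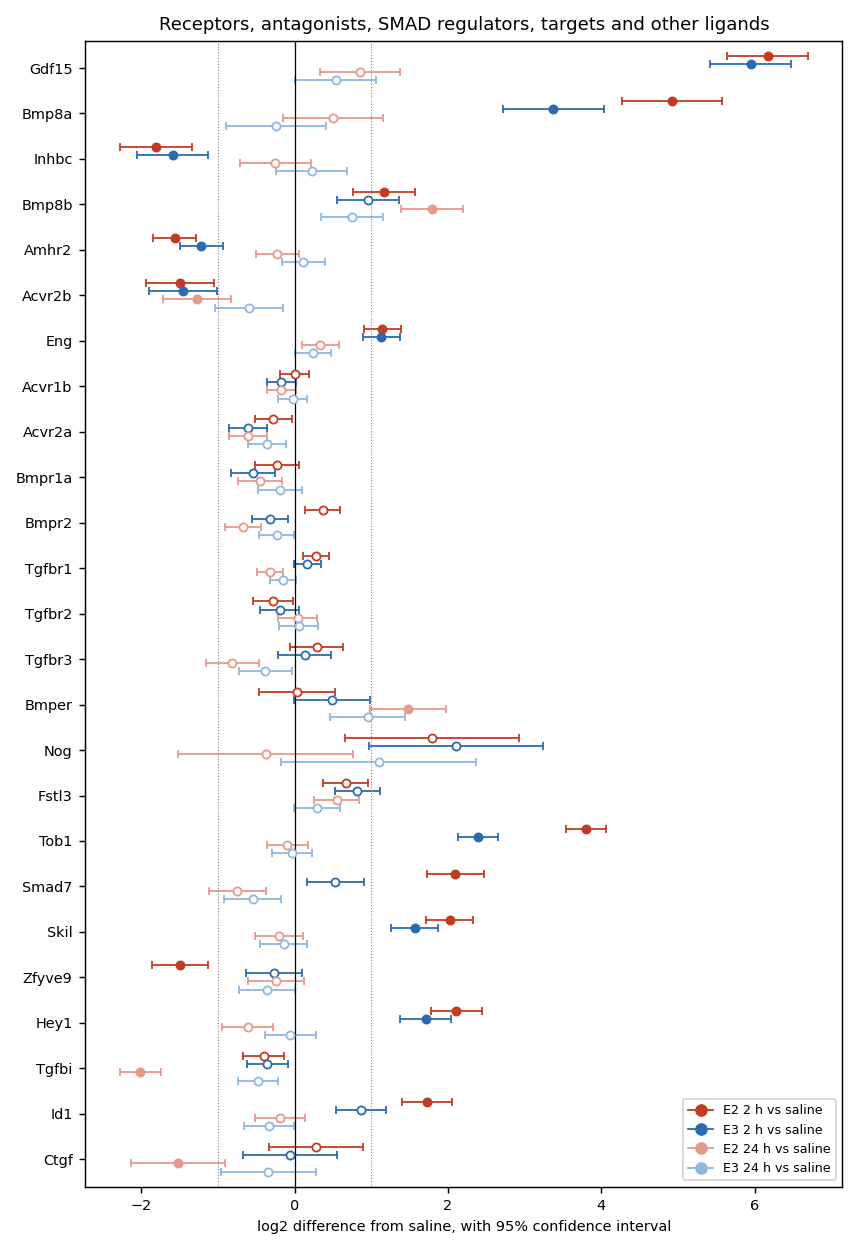
Log2 difference from saline (horizontal axis) of 25 named pathway genes for the 4 treated groups, with 95% confidence intervals. Filled circles passed p below 0.001 with at least 2-fold change, and dotted lines mark 2-fold. In each 2 hr group Gdf15 lies farthest to the right (6.17 after E2 and 5.95 after E3), Smad7 is filled with E2 but open with E3, and Tgfbi at 24 hr is filled only for E2.

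Uterine markers (Esr1, Pgr, Hoxa10, and Hoxa11) were well above background on every array that had a value, with none for Hoxa10 on the first E2 24 hr array. Their summed level was 34.4 to 39.5 with saline, 27.8 to 30.8 after E2 at 2 hr, 15.3 to 18.8 after E3 at 2 hr, and 29.9 to 34.4 on the 24 hr E2 and E3 arrays with all 4 values. The E3 2 hr arrays thus lay below all others in this sum, and its part in the E3 and E2 comparison at 2 hr was not tested. The markers did not move together. Mean log2 levels with saline, after E2 at 2 hr, and after E3 at 2 hr were -1.93, 0.54, and 0.21 for Pgr. They were 3.73, 4.10, and 3.22 for Esr1, 3.12, 1.79, and 1.25 for Hoxa10, and 3.92, 2.79, and 2.22 for Hoxa11. Markers of other tissues varied between arrays. The summed level of 10 liver genes was 7.62 to 28.3 with saline, 1.98 to 4.82 after E3 at 2 hr, and 0.291 to 0.802 in the other groups. That of 6 pancreas genes was 407 on the second E3 2 hr array and 155 on the second E2 24 hr array, and 0.177 to 6.04 elsewhere. Fat sums (4 genes) were 11.0 to 52.1 with saline, 6.11 to 10.5 after E2 at 24 hr, and 6.37 to 44.6 in the other groups. Skeletal muscle sums (4 genes) were 3.42 to 3.78 with saline and 2.24 to 4.30 in the 2 hr groups. At 24 hr they were 8.36 to 11.3 after E2 and 5.44 to 8.45 after E3. Epithelial marker sums (6 genes) were 77.1 to 106 with saline, 54.1 to 78.7 in the 2 hr groups, and 127 to 174 after E2 or E3 at 24 hr. Smooth muscle sums (5 genes) were 191 to 208, 199 to 225, and 267 to 338 in the same order. Endothelial sums (4 genes) were 7.05 to 7.35 with saline. They were 7.05 to 9.31 (E2) and 5.43 to 5.86 (E3) at 2 hr, and 4.13 to 4.72 and 5.21 to 5.48 at 24 hr. Stromal sums (5 genes) were 167 to 211 with saline. They were 190 to 214 (E2) and 155 to 161 (E3) at 2 hr, and 182 to 200 and 218 to 242 at 24 hr. Their part in the differences above was not tested, and in whole tissue fewer cells of a type and less RNA per cell cannot be told apart. Without the second E3 2 hr array 4 of the 13 probes were called after E3 at 2 hr, and the Inhbb differences lay between 4.14 and 5.40 in each run that left out 1 E3 2 hr or saline array.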

How the data were processed

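Cy3-labeled uterine RNA was hybridized by the authors to one-color Agilent arrays and extracted with Agilent Feature Extraction 9.5.3.1, as the file headers state. The deposited intensity of each spot is the processed signal, background subtracted and on a linear scale, with no scaling between arrays. The deposited series table holds the same values.

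Spots flagged as outliers and control spots were left out, log2 values of the spots of 1 probe were averaged, and each array was centered on its 75th percentile over 41174 probes. The filter kept the 34760 probes that 2 or more arrays of some group measured well above background, and these entered 1 fit over 15 arrays and 5 group means with limma 3.58.1 (lmFit and eBayes, 10 residual and 2.06 prior degrees of freedom) in R 4.3.3. The 9 contrasts were tested together, and calls used p below 0.001 with at least 2-fold change, the limits of the study's heat map. Precision is limited by the number of arrays. The 75th percentile was 2845 to 4187 on the raw scale, and 77.7% to 81.6% of probes were well above background on an array. Correlations within a group were 0.982 to 0.995, and no array was a copy of another. The fit was tested on simulated data.

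All probes of the 10 genes were named. From the lists of receptors, antagonists, SMADs, targets, and other ligands the text names up to 4 called genes per list with the largest difference from saline, and a fixed group of receptors and antagonists. Of that group Grem1 was not tested, being well above background on 1 array. Genes and lists were chosen with earlier results of these data known. Alternatives were normexp background correction with offset 50, quantile normalization, other scaling, other filters and call limits, a replicate or slide block, and each array left out in turn. The settings for the pathway counts were run after the data had been seen. Promoter sequences came from RefSeq (GRCm38.p6) and probe sequences from the arrays, read with Python 3.11.15, and figures were drawn with matplotlib 3.10.9.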

Additional observations from a re-analysis of the deposited data

Results flagged for a closer look

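The E3 minus E2 difference changed between 2 and 24 hr for 4 probes, by limma's interaction test over all probes (24 hr difference minus 2 hr difference). For Tgfb2 the change was 1.63 on the log2 scale (adjusted p = 6.17e-06), from -1.50 at 2 hr to 0.13 at 24 hr. For Bmp2 it was 1.15 (adjusted p = 0.000456), from -0.67 to 0.48, and under normexp it was 1.29 and no longer called. For Bmp4 it was 1.20 (adjusted p = 0.00206), from -0.34 to 0.86, and this call was lost in 8 of 12 runs that left out 1 array, under normexp (1.11), with no scaling (1.24), and in the fit of only the compared groups. For the weak Inhbb probe it was -1.55 (adjusted p = 0.000157), from 0.38 to -1.17, and under normexp it was -0.41 and no longer called, whereas the bright Inhbb probe gave -0.67 (adjusted p = 0.0104), which was not called. Each of these tests includes the E2 2 hr arrays, so that strain and scan cannot be told apart from treatment in them.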

How the results depend on the processing

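No probe changed direction under any alternative where it or the alternative was called. Of 13 probes, 5 after E2 at 2 hr, 5 after E3 at 2 hr, 2 after E2 at 24 hr, and 0 after E3 at 24 hr were called against saline. For the settings in this paragraph only counts that moved well away from the main ones are listed, and some of the others changed by less. With normexp the counts were 1 for E2 at 24 hr, 1 for E3 against E2 at 24 hr, and 1 for the interaction. This setting moved the median of all probes by 0.32 in E3 at 24 hr against saline, by 0.36 in E3 against E2 at 24 hr, by 0.37 in E3 at 24 against 2 hr, and by 0.37 in the interaction, and the interactions of the weak Inhbb probe (-0.41), Bmp2 (1.29), and Bmp4 (1.11) were no longer called. Quantile normalization gave 1 for E3 against E2 at 24 hr, and no scaling gave 1 for E3 at 24 hr against saline. At p below 0.001 with no minimum change the counts were 5 (E2 at 24 hr), 2 (E3 at 24 hr), and 2 (E3 against E2 at 2 hr). This limit also added Inhba and Fst after E2 at 2 hr, and Inhba and Tgfb2 after E3 at 2 hr. At an adjusted p below 0.05 with no minimum the counts were 8, 9, 8, and 2 against saline in the order above, 6 and 6 for E3 against E2 at 2 and 24 hr, and 8 and 8 for 24 against 2 hr with E2 and with E3. The shares of all probes under these other settings are not given, so these counts are not set against a background. The causes were not tested.

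With 1 array left out at a time the counts ran from 5 to 6, 4 to 5, 1 to 4, and 0 to 1 against saline, 1 to 1 and 0 to 3 for E3 against E2, 4 to 4 and 4 to 6 for 24 against 2 hr with E2 and with E3, and 3 to 4 for the interaction. Without the third E2 24 hr array the E3 against E2 count at 24 hr was 0.

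The pathway counts of each setting are likewise listed only where they moved well away from the main ones. For the pathway lists normexp gave 1 (E3 at 24 hr against saline), 2, and 1 (E3 against E2 at 2 and 24 hr), quantile normalization 1 (E3 at 24 hr), and an adjusted p below 0.05 with 2-fold 4 (E3 against E2 at 24 hr). A fit of only the compared groups gave 3 for E3 against E2 at 2 hr. With p below 0.001 and no minimum the counts were 23 (E3 at 2 hr), 21 and 4 (E2 and E3 at 24 hr), and 13 and 5 (E3 against E2). With an adjusted p below 0.05 and no minimum they were 52, 39, 44, and 12 against saline and 25 and 21 for E3 against E2. Here too the shares of all probes under these settings are not given, so the counts are not set against a background. Leaving out 1 array gave 16 to 20, 15 to 17, 8 to 10, and 0 to 1 against saline, and 3 to 5 and 1 to 3 for E3 against E2.

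With the replicate number as a block, the counts were 5, 4, 2, and 0 against saline, 1 and 2 for E3 against E2, 4 and 5 for 24 against 2 hr, and 4 for the interaction, and the weak Inha probe after E3 at 2 hr (-1.26) was the call lost. The numbers did not pair the arrays, as 10 of 30 pairs of the same number correlated above 0.1 (range -0.47 to 0.55) and 5 of 15 arrays correlated best with their own number. Slide as a random block had a correlation of -0.02 and changed no member call. Against the 1 saline array that shared a slide with the 3 E3 2 hr arrays, the E3 2 hr Inhbb differences were 4.21 and 5.31, and the weak Inha call was lost (-1.27), where the lone array is assumed to vary like the other groups.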
